A study of Mus musculus with 14 samples.

Results

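The MEF2 genes encode the myocyte enhancer factors 2, and 3 of them, Mef2a, Mef2c and Mef2d, were followed here among the 24421 genes of the RNA-seq table and, through the open chromatin around them, among the 53204 elements of the ATAC-seq table. The 3 genes were taken by name, and an element, a 200 bp stretch around the summit of an ATAC-seq peak, was taken where it lay within 200 kb of one of them on mouse genome build GRCm38. That gave 71 elements, of which 16 belonged to Mef2a, 20 to Mef2c and 35 to Mef2d. Elements are numbered along the chromosome within each locus.

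All 14 libraries came from photoreceptors of 8-week-old C57BL/6 mice, sorted by their green fluorescence. Rods came from Nrl-eGFP mice, in which the promoter of the rod gene Nrl drives the reporter. Nrl-/- photoreceptors came from Nrl-eGFP;NrlKO mice. They carry the same reporter but lack NRL, the factor that directs photoreceptor precursors to the rod fate, so they take on a cone fate in which the blue opsin dominates, and the labels call them blue cones. They are a mutant stand-in for native blue cones and not those cells themselves. Native green cones came from Opn1mw-GFP mice, whose reporter follows the green opsin gene, and were sorted once or, for higher purity, a second time. Retinas of several mice were pooled for a sort. ATAC-seq, which reads out open chromatin by the insertion of a transposase, was done on 2 libraries each of rods, of Nrl-/- photoreceptors, and of green cones after either sort. For the first single-sorted green cone library the study's sample list gives the Nrl-/- line where the label gives Opn1mw-GFP, and single-sorted libraries entered no main test. RNA-seq was done on 3 libraries each of rods and Nrl-/- photoreceptors, and RNA of green cones was not analysed here.

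MEF2 proteins are MADS-box transcription factors that bind a short A/T-rich sequence as dimers. Class IIa histone deacetylases hold them in a repressive state, and calcium signalling through CaM kinases and calcineurin, or MAP kinases such as p38 and ERK5, turns them toward activation. They are best known from muscle, neurons and immune cells, and in photoreceptors MEF2D is known to act with the homeodomain factor CRX at the genes of the outer segment.

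Some of the elements that were called between rods and cones are shown first, namely those within Mef2c and Mef2a and the cone element beside Mef2d, together with a MEF2 site at the start of Mef2a. They were read from the RefSeq copy of GRCm38, 5' to 3' on the strand of the named gene, and capitals mark letters that match 1 of the searched motifs on either strand. The element at the most downstream start of Mef2c is shown up to the last base before that start.

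Mef2c element 4, chr13:83573449-83573606, plus strand, capitals mark AGGTCA on the opposite strand: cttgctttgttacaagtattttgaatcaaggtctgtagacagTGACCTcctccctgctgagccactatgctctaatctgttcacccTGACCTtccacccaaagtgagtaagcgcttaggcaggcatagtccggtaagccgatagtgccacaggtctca
Mef2c element 5, chr13:83573998-83574197, plus strand, capitals mark TAATTA: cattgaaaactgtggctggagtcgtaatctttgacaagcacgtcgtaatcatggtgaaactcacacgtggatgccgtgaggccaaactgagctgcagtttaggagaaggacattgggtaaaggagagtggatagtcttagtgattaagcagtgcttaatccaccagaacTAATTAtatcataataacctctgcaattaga
Mef2c element 1, chr13:83523745-83523944, plus strand, no match: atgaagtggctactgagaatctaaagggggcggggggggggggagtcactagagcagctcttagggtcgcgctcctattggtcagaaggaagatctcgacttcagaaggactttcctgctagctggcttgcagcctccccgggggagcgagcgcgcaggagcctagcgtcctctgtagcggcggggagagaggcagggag
Mef2c element 3, chr13:83527937-83528136, plus strand, capitals mark CATATG: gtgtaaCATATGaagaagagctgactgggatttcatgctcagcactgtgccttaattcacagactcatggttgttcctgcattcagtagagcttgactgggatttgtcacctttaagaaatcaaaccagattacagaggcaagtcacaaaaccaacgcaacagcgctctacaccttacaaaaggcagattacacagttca
Mef2a element 9, chr7:67344386-67344585, minus strand, capitals mark CTAATCC on the opposite strand: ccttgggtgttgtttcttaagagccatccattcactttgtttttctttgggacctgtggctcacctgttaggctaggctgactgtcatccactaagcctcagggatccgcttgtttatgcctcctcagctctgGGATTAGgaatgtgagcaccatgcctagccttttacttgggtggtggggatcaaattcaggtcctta
Mef2a element 11, 30 bases across the start site, chr7:67372841-67372870, minus strand, capitals mark the MEF2 consensus: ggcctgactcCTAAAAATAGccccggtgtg
Mef2d element 12, chr3:88105265-88105464, plus strand, capitals mark CTAATCC: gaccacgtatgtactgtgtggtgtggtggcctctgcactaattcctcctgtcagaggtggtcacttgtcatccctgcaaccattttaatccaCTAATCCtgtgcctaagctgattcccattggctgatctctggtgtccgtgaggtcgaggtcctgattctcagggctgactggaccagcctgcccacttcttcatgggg

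RNA of 1 MEF2 gene, Mef2c, was much higher in rods than in Nrl-/- photoreceptors, while Mef2a was slightly higher and Mef2d about level. Values are CPM, the reads of a gene relative to the library total after TMM scaling, and a gene was called changed where edgeR's test against a 2-fold change (a log2 fold change of 1) gave a Benjamini-Hochberg adjusted p under 0.05. Of the 12327 genes tested, 848 or 6.88% were higher in rods and 1635 or 13.3% were higher in Nrl-/- photoreceptors. By this rule 1 of the 3 MEF2 genes was higher in rods and 0 were higher in Nrl-/- photoreceptors.

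Mef2c, on chromosome 13 from 83504017 to 83667079 on the plus strand, encodes a MEF2 factor that is widely used in the heart, in lymphocytes and in cortical neurons. Its RNA was 671, 756 and 685 CPM in the 3 rod libraries and 34.8, 30.2 and 28.8 CPM in the 3 Nrl-/- libraries. The lowest rod library was thus far above the highest Nrl-/- library. The log2 fold change of rods over Nrl-/- photoreceptors was 4.47 (SE 0.14, 95% interval 4.17 to 4.77, adjusted p = 3.5e-10 by edgeR, n = 3 each), which is a 22.1-fold difference. In Nrl-/- libraries 773 to 897 reads still fell on Mef2c, so its RNA was low there and not absent. Which of the sorted cells held it was not tested. The median log2 fold change over all genes tested was 0.01.

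Mef2a, on chromosome 7 from 67231163 to 67376456 on the minus strand, encodes a MEF2 factor found in most tissues. Its RNA was 64.7, 67.5 and 68.9 CPM for rods against 42.1, 40.8 and 44.8 CPM in the Nrl-/- libraries. The groups did not overlap, as for 2 of the 3 MEF2 genes and for 67.1% of all genes tested. Its log2 fold change was 0.63 (SE 0.11, 95% interval 0.39 to 0.87), which did not exceed the 2-fold limit (edgeR adjusted p = 1). Tested by edgeR against no change at all, its adjusted p was 3.8e-04, a level that 60.9% of the tested genes passed at 0.05.

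Mef2d, on chromosome 3 from 88141941 to 88172091 on the plus strand, encodes the family member best known from photoreceptors. It stood at 155, 160.1 and 179 CPM for rods against 156, 162 and 156 CPM in the Nrl-/- libraries. The rod and Nrl-/- values overlapped. The log2 fold change was 0.04 (SE 0.11, 95% interval -0.20 to 0.27), and edgeR's adjusted p against no change was 0.789. This interval leaves out changes of 2-fold or more in either direction. Leaving out rod library 3, the highest for Mef2d, turned the sign to -0.02. The fourth family member, Mef2b, was too low to test, at 1 to 8 reads per library.

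**Figure D1:**
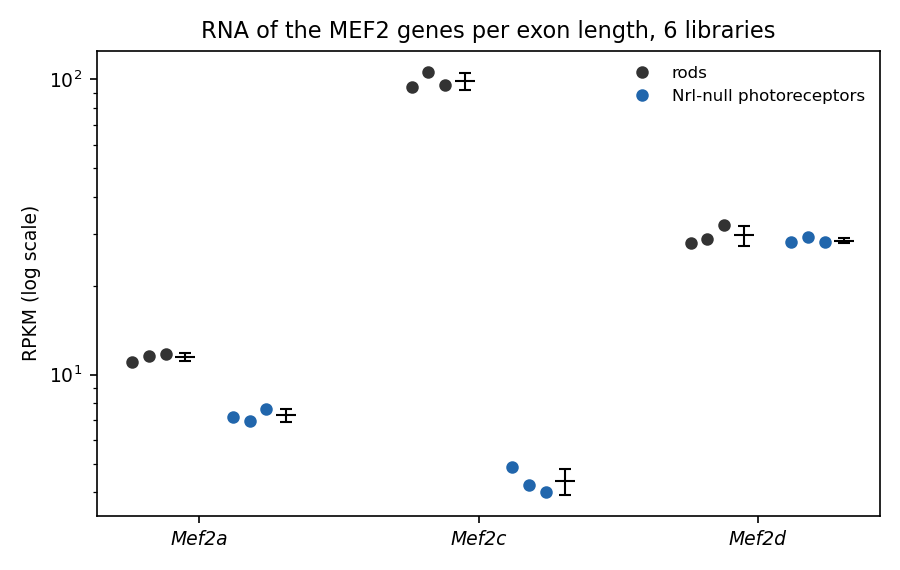
RNA of the 3 MEF2 genes in each of the 6 RNA-seq libraries, as CPM per kilobase of exon (RPKM, log axis). Points are libraries, bars beside them the mean and SD of 3, and Mef2c is the gene whose rods (mean 98.4 RPKM) and Nrl-/- photoreceptors (mean 4.37 RPKM) lie far apart.

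Divided by exon length, so that genes can be set side by side, the order of the MEF2 genes differed between the 2 photoreceptor types. In rods the level of Mef2c was highest at 98.4 RPKM ± 6.39 (SD, n = 3), followed by Mef2d at 29.6 RPKM ± 2.30 and Mef2a at 11.5 RPKM ± 0.369. In Nrl-/- photoreceptors Mef2d led at 28.4 RPKM ± 0.653, followed by Mef2a at 7.29 RPKM ± 0.343 and Mef2c at 4.37 RPKM ± 0.441. Each neighbouring pair in both orders was separated by more than its spread. Mef2b lay at 0.156 RPKM ± 0.136 in rods and 0.0679 RPKM ± 0.0680 in Nrl-/- photoreceptors. The 3 genes summed to 139.5 RPKM ± 6.65 in rods and 40.1 RPKM ± 0.297 in Nrl-/- photoreceptors.

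As a share of that sum, Mef2c made up 70.7%, 72.4% and 68.5% in the rod libraries and 12.1%, 10.4% and 10.1% in the Nrl-/- libraries. The mean share was 59.6 percentage points higher in rods (two-sided exact permutation test over libraries, p = 0.1, the smallest value that 3 against 3 allows). Mef2d made up 21.3% ± 1.69 of the sum in rods and 70.9% ± 1.22 in Nrl-/- photoreceptors. Its share was thus the larger one where Mef2c was low, at a level of its own that did not pass the test. Mef2a held 8.23% ± 0.283 in rods and 18.2% ± 0.989 in Nrl-/- photoreceptors.

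Beside the other transcription factors of photoreceptors, the level of Mef2c in rods (98.4 RPKM) lay between Esrrb, an orphan nuclear receptor of rods, at 54.6 RPKM and Samd7, a repressor of non-rod genes, at 129 RPKM. Crx, the homeodomain activator of photoreceptor genes, stood at 1116 RPKM in rods and 700.4 RPKM in Nrl-/- photoreceptors. In Nrl-/- photoreceptors Mef2c (4.37 RPKM) lay above Esrrb at 3.08 RPKM. Of the 13 listed photoreceptor factors, all tested, 5 were higher in rods and 3 higher in Nrl-/- photoreceptors, where 6.88% and 13.3% of all genes were, with a median log2 fold change of 0.04. Nr2e3, the nuclear receptor that represses cone genes in rods, had a log2 fold change of 8.94 (SE 0.28), and Nrl itself one of 4.48 (SE 0.20), close in size to the 4.47 of Mef2c. Esrrb was at 4.12 (SE 0.17) and Samd7 at 2.13 (SE 0.12). On the other side Rxrg, a retinoid receptor of cones, was at -7.93 (SE 0.18), Sall3, a zinc finger factor of cones, at -7.06 (SE 0.27) and Prdm1, a repressor of the bipolar fate, at -1.38 (SE 0.11). Otx2, at 374 CPM for rods against 359 CPM in the Nrl-/- libraries, and Neurod1, at 2177 and 2220 CPM, were about as level as Mef2d.

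The genes whose pattern over the 6 libraries was closest to each MEF2 gene were found by the Pearson correlation of log2(CPM + 1). The libraries form 2 groups, so for Mef2c the value mainly reflects the gap between them, and it is given with no test. For Mef2c they were Galnt10, a glycosyltransferase (r = 0.9998), Aggf1 (r = 0.9996) and Gnat1, the rod transducin alpha subunit (r = 0.9996). Galnt10 had 31.9 CPM for rods against 0.551 CPM in the Nrl-/- libraries, and Aggf1 had 221 and 19.6 CPM. For Mef2a they were Cyb561a3 (r = 0.9990), 2210018M11Rik (r = 0.9989) and Mdm1, a centriole protein (r = 0.9984), each with a log2 fold change between 0.69 and 1.04. For Mef2d they were Slco1a4 (r = 0.9613), Pcyt2 (r = 0.9474) and Sorbs2os (r = 0.9318), 3 genes that did not differ between the groups by the test and of which Slco1a4 and Sorbs2os lay near or below 1 CPM.

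The proteins that switch MEF2 factors on and off were compared next. Of 26 listed regulators and partners, 25 could be tested, 4 were higher in rods, 3 were higher in Nrl-/- photoreceptors, and their median log2 fold change was 0.08 against 0.01 over all genes. Of all genes tested, 6.88% were called on the rod side and 13.3% on the Nrl-/- side.

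Camk2b, the beta chain of the calcium- and calmodulin-dependent kinase II, differed most. It had 7.25, 8.11 and 8.56 CPM for rods against 1220, 1271 and 1246 CPM in the Nrl-/- libraries, and the log2 fold change of rods over Nrl-/- photoreceptors was -7.31 (SE 0.15, edgeR adjusted p = 3.4e-11). Its sister chains did not pass the test, with Camk2d at 501 and 561 CPM and Camk2g at 100.2 and 172 CPM for rods against Nrl-/- photoreceptors. The kinase Camk1 was low in both but higher in Nrl-/- photoreceptors, at 1.01 CPM ± 0.127 in rods against 6.44 CPM ± 1.90 (log2 fold change -2.69, SE 0.33). Camk2a was too low to test.

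Among the class IIa histone deacetylases that bind and silence MEF2 factors, Hdac9 had the highest count at 287 CPM ± 34.5 in rods against 267 CPM ± 19.1 in Nrl-/- photoreceptors, and it did not pass the test. Hdac5 was at 71.6 and 102 CPM and Hdac4 at 25.6 and 22.0 CPM, neither past the limit. Hdac7, the member that passed the test against a 2-fold change, was low in both. It was nearly absent from rods at 0.216 CPM ± 0.117 and stood at 1.71 CPM ± 0.451 in Nrl-/- photoreceptors (log2 fold change -2.99, SE 0.54, edgeR adjusted p = 0.00405).

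The salt-inducible kinases keep these deacetylases out of the nucleus by phosphorylation. Sik2 was 29.2, 26.8 and 25.7 CPM for rods against 2.75, 5.33 and 3.87 CPM in the Nrl-/- libraries (log2 fold change 2.75, SE 0.22, edgeR adjusted p = 9.3e-06). Sik1 was higher in rods too at a low level, 2.60 against 0.396 CPM (log2 fold change 2.67, SE 0.41), and Sik3 at 19.8 and 11.6 CPM did not pass. Ppp3r1, the regulatory subunit of calcineurin, was at 193 CPM ± 7.34 in rods against 67.1 CPM ± 8.57 in Nrl-/- photoreceptors (log2 fold change 1.50, SE 0.12), whereas its catalytic subunits Ppp3ca and Ppp3cb did not pass. Ncoa2, a coactivator that binds MEF2C, was at 126 and 49.2 CPM (log2 fold change 1.33, SE 0.16). The kinases p38 (Mapk14, 15.4 and 9.10 CPM) and ERK5 (Mapk7, 3.92 and 9.52 CPM) did not pass the test. Srf, which encodes another MADS-box factor, was at 10.1 and 6.40 CPM and did not pass either.

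Of 12 genes known as MEF2 targets in muscle, neurons or immune cells, 8 could be tested. The 2 that edgeR called were higher in Nrl-/- photoreceptors, the commoner direction over all genes (13.3% against 6.88% in rods). The median log2 fold change of the 8 was -0.90, against 0.01 over all genes. Nr4a1, an immediate early gene of the nuclear receptor family, had 4.69, 5.69 and 4.98 CPM for rods against 84.9, 105 and 115 CPM in the Nrl-/- libraries (log2 fold change -4.33, SE 0.16, edgeR adjusted p = 1.9e-09). Slc2a4, the insulin-regulated glucose transporter, had 0.540 CPM ± 0.335 in rods against 10.2 CPM ± 1.54 in Nrl-/- photoreceptors (log2 fold change -4.23, SE 0.36). Ppargc1a, the coactivator of mitochondrial genes, was at 183 and 108 CPM and Klf6 at 28.1 and 19.2 CPM, and neither passed. Jun at 28.1 and 63.7 CPM, Bdnf at 0.436 and 1.05 CPM and Homer1 at 5.84 and 8.63 CPM lay the other way. They did not pass either, nor did Hdac9, which is also on this list.

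**Figure D2:**
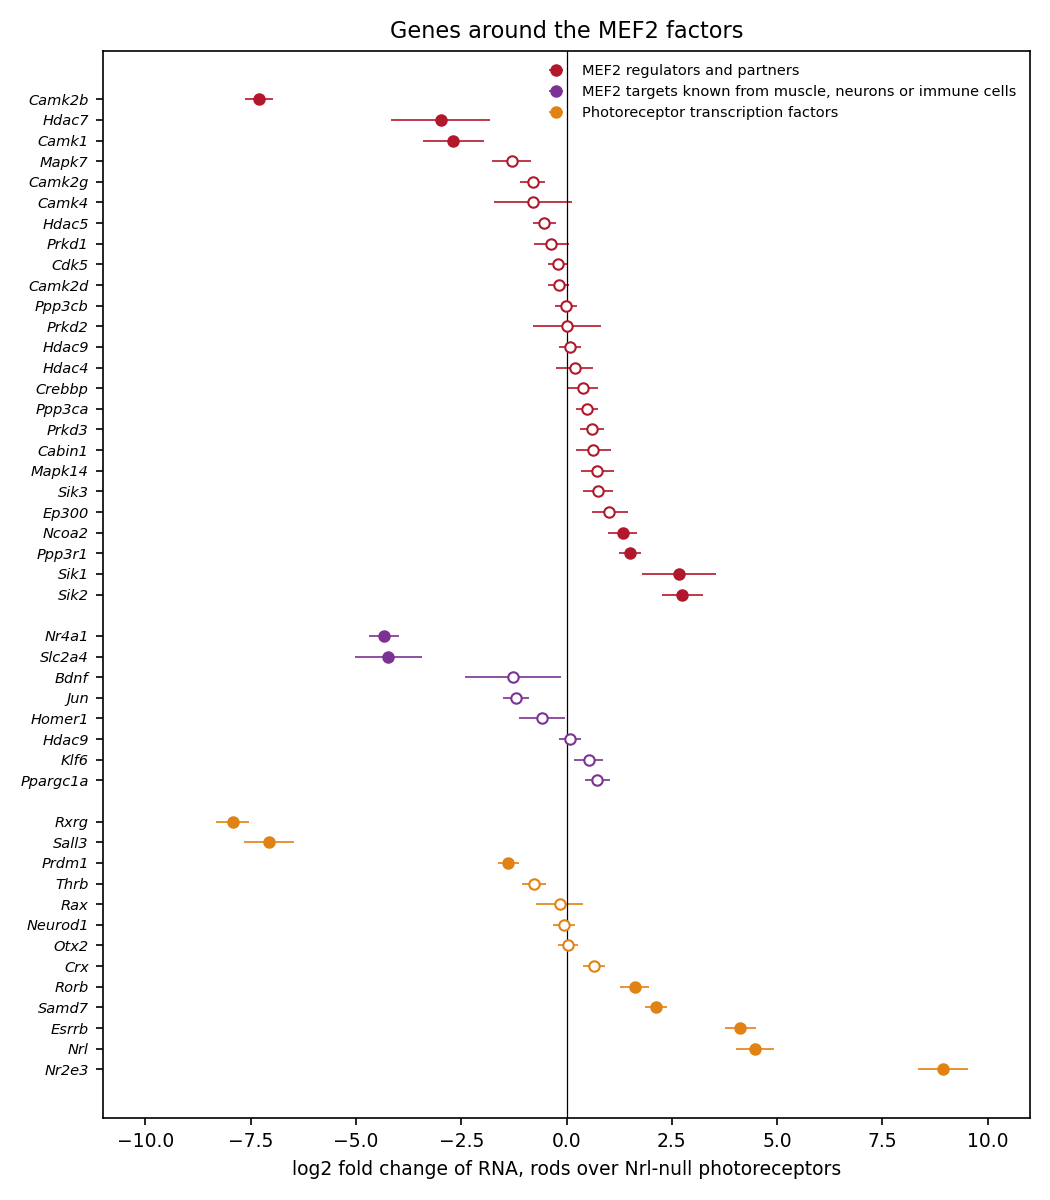
Log2 fold change of RNA, rods over Nrl-/- photoreceptors, for the tested genes of 3 lists in 3 colours. Points are edgeR estimates from 3 libraries each with 95% intervals, filled where the adjusted p against a 2-fold change was under 0.05, and Camk2b at -7.31 stands furthest out among the 25 tested regulators and partners.

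Mef2c is also used by microglia and endothelium, so markers of other cells are given beside it, and in bulk samples fewer cells of a type and less RNA per cell cannot be told apart. Of 5 rod markers 4 were called higher in rods (all but Sag, at a log2 fold change of 0.75) and of 5 cone markers 5 were called higher in Nrl-/- photoreceptors, as the labels say. The targeted gene Nrl had 604 to 853 CPM for rods against 24.4 to 39.2 CPM in the Nrl-/- libraries. The 5 microglial markers summed to 2.74 to 4.87 CPM for rods against 11.5 to 18.0 CPM in the Nrl-/- libraries, with 2 called higher in Nrl-/- photoreceptors. The 4 endothelial markers summed to 5.84 to 10.3 CPM for rods against 0.427 to 1.83 CPM in the Nrl-/- libraries, with 1 called. That was Pecam1, at 6.66 CPM for rods, whereas Cdh5, which defines endothelium, was at 0 in 4 of 6 libraries and at 0.112 CPM in the others. The part of microglia or endothelial cells in the difference of Mef2c was not tested. Smooth muscle and pericyte markers summed to 1.16 to 3.36 CPM for rods against 1.71 to 2.87 CPM in the Nrl-/- libraries, and neither of the 2 tested ones passed. Bipolar markers summed to 73.7 to 91.8 and 1336 to 1548 CPM, of which Cabp5 had 14.3 and 1390 CPM, with 1 called higher in rods and 2 in Nrl-/- photoreceptors. Amacrine markers summed to at most 1.11 CPM and horizontal markers to at most 1.41 CPM. Ganglion cell markers summed to 0.727 to 1.21 and 6.62 to 9.11 CPM, and Muller glia markers to 39.7 to 58.3 and 27.7 to 43.3 CPM. Slc32a1 of amacrine and Pou4f2 of ganglion cells were at 0 in all 6 libraries.

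The 71 elements around the MEF2 genes were next compared between rods and cones. Of these, 22 lay within the span of a MEF2 gene, 20 were at a start site (from 1000 bp before to 100 bp after the start of a curated RefSeq transcript), 8 in other exons, 28 in introns and 15 between genes. The deposited peak lists, whose peaks are named as pooled, held 49 of the 71 elements in rods, 66 in Nrl-/- photoreceptors, 51 in double-sorted and 55 in single-sorted green cones, and 40 of the 71 were in all 4 lists. That is 69.0%, 93.0%, 71.8% and 77.5% of the 71, where the same lists held 60.9%, 82.0%, 73.5% and 84.6% of all 53204 elements. Of the 22 elements that the rod list lacked, 6 were at Mef2a, 8 at Mef2c and 8 at Mef2d. The rod list alone held 2 elements, Mef2a element 9 and Mef2d element 29. Shares of all elements were not counted for the 4 lists together or for the rod list alone. An element counted as held where any part of it overlapped a peak, so a weak element beside a strong one can count. Mef2d element 10, with at most 2 counts in any library, thus counted in all 4 lists.

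For rods against cones, the 2 rod libraries were set against the 2 Nrl-/- and 2 double-sorted green cone libraries, and an element was called where edgeR's test against a 2-fold change gave an adjusted p under 0.1. Over the 51563 elements tested, 3.98% were more open in rods and 18.1% in cones, so that rods were the higher side in 18.0% of calls, 35.4% where libraries were scaled by processed reads, 9.64% with DESeq2 and 13.3% with single-sorted cones. Of the 71 elements 68 could be tested, 5 were more open in rods and 4 in cones. Mef2a had 2 and 0 of 15, Mef2c 2 and 3 of 20 and Mef2d 1 and 1 of 33. The median log2 fold change was -0.32 at Mef2a, 0.12 at Mef2c and 0.40 at Mef2d, against -0.13 over all elements. With DESeq2 1 element was called more open in rods and 3 in cones, and without either rod library 1 element was called more open in rods. That element was Mef2c element 4 in each of those fits.

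**Figure D3:**
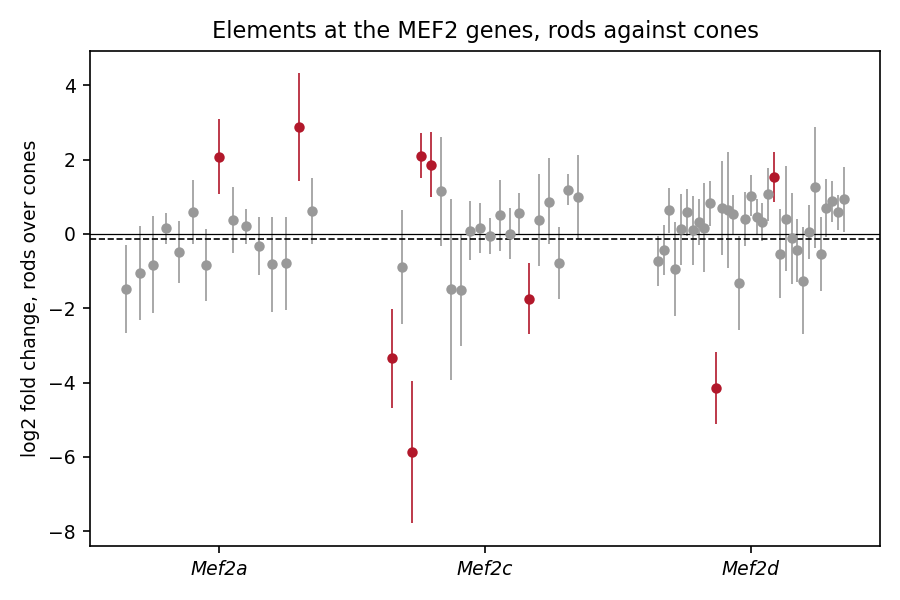
Log2 fold change of accessibility, rods over cones, of the 68 tested elements in order along each locus. Points are edgeR estimates with 95% intervals from 2 rod and 4 cone libraries, red where the adjusted p against a 2-fold change was under 0.1, the dashed line is the median of all elements at -0.13, and the 9 red points include 5 at Mef2c on both sides of 0.

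RefSeq gives Mef2c 4 curated start sites on chromosome 13, at 83504034, 83523656, 83524743 and 83573607. The most downstream of them was more open in rods, and an element just behind the second was more open in cones. No element lay at the first start, from which the nearest element was 19.7 kb away.

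Element 4 covers the start at 83573607, which 2 of the 18 curated transcripts use. It had 55.4 and 58.0 CPM for rods, 10.3 and 12.3 CPM in the Nrl-/- libraries, 14.0 and 18.0 CPM in double-sorted and 19.8 and 18.2 CPM in single-sorted green cones. Both rod libraries were above all 6 cone libraries. Rods over cones gave a log2 fold change of 2.10 (SE 0.27, 95% interval 1.51 to 2.70, edgeR adjusted p = 0.00393), a 4.30-fold difference. It was open in cones as well, since all 4 peak lists held it, with a fold enrichment over local background of 16.3 in rods and 10.5 to 10.8 in the others. Of its letters 48.0% were G or C, and AGGTCA, the half-site of nuclear receptors, was in it 2 times, as capitals show above.

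Element 5 lies 349 bp further on in the intron and shared the direction. It had 17.5 and 19.6 CPM for rods, 4.97 and 3.40 CPM in the Nrl-/- libraries, 6.22 and 7.19 CPM in double-sorted and 7.57 and 5.93 CPM in single-sorted green cones. Rods again lay above every cone library. The log2 fold change was 1.86 (SE 0.39, edgeR adjusted p = 0.0442). The call was lost without the first rod library (1.92, adjusted p = 0.174), the second rod library (1.75, adjusted p = 0.228) or the second Nrl-/- library (1.60, adjusted p = 0.128) in edgeR and with DESeq2.

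Element 1 begins 89 bp after the start at 83523656, which 3 of the 18 transcripts use. It had 0.833 and 1.13 CPM for rods, 9.52 and 10.4 CPM in the Nrl-/- libraries and 6.22 and 16.2 CPM in double-sorted green cones. Single-sorted green cones stood in between at 2.69 and 2.74 CPM. Its log2 fold change of rods over cones was -3.35 (SE 0.61, 95% interval -4.69 to -2.01, edgeR adjusted p = 0.00698), so the element was 10.2-fold more open in cones. Neither the rod list nor the single-sorted list held it.

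Element 2, at chr13:83524708-83524907, covers the start at 83524743 that 8 of the 18 transcripts use. It had 2.92 and 2.82 CPM for rods, 8.28 and 7.49 CPM in the Nrl-/- libraries, 2.33 and 1.80 CPM in double-sorted and 1.95 and 2.74 CPM in single-sorted green cones. By CPM it was thus higher in Nrl-/- photoreceptors than in green cones, whose double-sorted libraries held 3 and 2 counts. But the log2 fold change of double-sorted green cones over Nrl-/- photoreceptors, -1.88 (SE 0.71), had an edgeR adjusted p of 0.737. The peak lists of both groups held it, at a fold enrichment of 6.70 in Nrl-/- photoreceptors and 5.83 in double-sorted green cones. The rod and single-sorted lists did not. Rods over cones gave -0.89 (SE 0.70, adjusted p = 0.734 by edgeR).

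Element 3, in the intron behind these starts, differed most of all at Mef2c. It had 0.417 and 0 CPM for rods, 15.3 and 14.3 CPM in the Nrl-/- libraries, 6.22 and 19.8 CPM in double-sorted and 5.86 and 9.58 CPM in single-sorted green cones. The rod libraries together held 2 counts. The ratio of Nrl-/- photoreceptors to rods was 74.1 (95% counting interval 20.0 to 621), and that of double-sorted green cones to rods 63.2 (16.0 to 546). Both intervals take each count as independent and leave out the spread between libraries. Most low counts were even, so counts are not independent and the intervals are too narrow. The difference of rods and cones passed the test with an edgeR adjusted p of 0.00138, and the element was in all 3 cone lists and not in the rod list. It holds CATATG, a sequence of the E-box class.

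**Figure D4:**
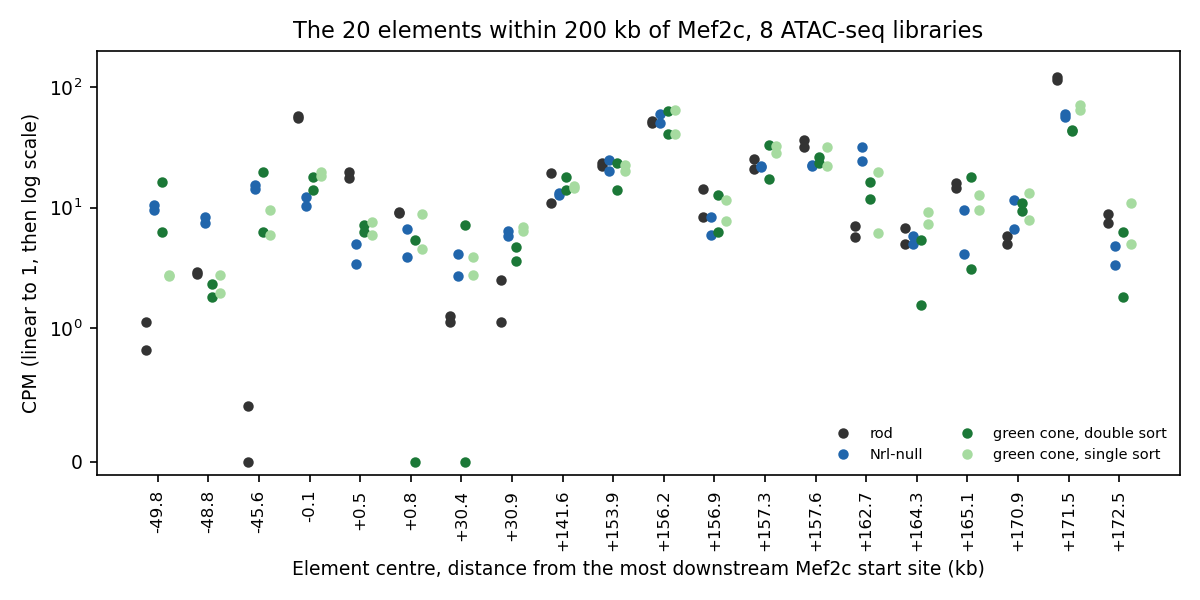
Accessibility of the 20 elements within 200 kb of Mef2c in each of the 8 ATAC-seq libraries, in CPM on an axis that is linear up to 1 and logarithmic above. Elements are in order along the chromosome, labelled by the distance of their centre from the most downstream start site. Among others, both rod libraries (black) lie below all cone libraries at elements 1, 3 and 8 and above them at elements 4, 5 and 19.

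Beyond the gene, 1 further element of the locus was called. Element 15, at chr13:83736179-83736378 in an intron of the non-coding gene C130071C03Rik, had 7.08 and 5.65 CPM for rods, 31.5 and 24.1 CPM in the Nrl-/- libraries, 11.7 and 16.2 CPM in double-sorted and 6.10 and 19.6 CPM in single-sorted green cones. The single-sorted libraries overlapped the rods. The log2 fold change of rods over cones was -1.75 (SE 0.44, edgeR adjusted p = 0.0787). Without the first Nrl-/- library the adjusted p was 0.22, without the second 0.134, without the first rod library 0.223 and without the second rod library 0.33, all by edgeR. The call was also lost with DESeq2 (adjusted p = 0.594), with processed reads (log2 fold change -1.20, adjusted p = 0.384) and with single-sorted green cones (adjusted p = 0.151). It holds TAATTA and CATATG.

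The most accessible element of the locus was element 19, at chr13:83745002-83745201 between genes. It had 114 and 122 CPM for rods, 60.0 and 56.3 CPM in the Nrl-/- libraries, 44.3 and 43.1 CPM in double-sorted and 71.3 and 64.3 CPM in single-sorted green cones. Rods lay above every cone library, but the log2 fold change of 1.19 (SE 0.19) did not exceed the 2-fold limit against the cones (edgeR adjusted p = 0.211). Against the double-sorted green cones alone it was 1.41 (SE 0.24) and passed (adjusted p = 0.0753 by edgeR), but not without the first or the second rod library, where the largest adjusted p was 0.359. It holds TGCTGAC, the core of the site bound by NRL and other MAF factors.

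The only element of the locus with the MEF2 consensus was element 7, at chr13:83603944-83604143 in the Mef2c intron, which holds it 2 times and was named for that after its values were seen. It was weakly open, at 1.25 and 1.13 CPM for rods, 4.14 and 2.72 CPM in the Nrl-/- libraries and 0 and 7.19 CPM in double-sorted green cones, and did not pass the test (edgeR adjusted p = 0.592).

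At Mef2a, the start itself was about as open in rods as in cones. Element 11 covers the curated start at 67372858 and had 52.9 and 53.7 CPM for rods, 44.3 and 43.6 CPM in the Nrl-/- libraries and 58.3 and 41.3 CPM in double-sorted green cones. The log2 fold change was 0.20 (SE 0.22, 95% interval -0.28 to 0.68, edgeR adjusted p = 1). The MEF2 consensus in it begins before the start site and runs across it, as the 30 bases above show, and it was in 2.65% of all elements. Elements 12 and 13, just upstream and within the same peaks, had log2 fold changes of -0.32 (SE 0.35) and -0.82 (SE 0.58). The sign of the former turned to 0.10 when libraries were scaled by processed reads.

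Element 9, in a Mef2a intron, was more open in rods. It had 13.1 and 12.2 CPM for rods, 1.66 and 3.63 CPM in the Nrl-/- libraries, 3.11 and 3.59 CPM in double-sorted and 4.40 and 3.65 CPM in single-sorted green cones. Rods lay above every cone library by more than the spread within any group. Rods over cones gave a log2 fold change of 2.08 (SE 0.46, edgeR adjusted p = 0.0372), and the call was lost without the first (adjusted p = 0.212) or the second rod library (0.169) in edgeR and with DESeq2 (0.405). It holds CTAATCC, the site of CRX and OTX2, shown above on the opposite strand.

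Element 15 of the Mef2a locus, at chr7:67548915-67549114 in an intron of Lrrc28, followed the same pattern. It had 27.5 and 24.9 CPM for rods, 7.45 and 4.09 CPM in the Nrl-/- libraries, 0 and 0 CPM in double-sorted and 7.81 and 3.65 CPM in single-sorted green cones. Rods were at least 10.4-fold higher than double-sorted green cones, taking 3 counts in each of those libraries as the floor. Against Nrl-/- photoreceptors the log2 fold change was 2.26 (SE 0.30, edgeR adjusted p = 1.9e-04). Against all 4 cone libraries it was 2.87 (SE 0.66, adjusted p = 0.027), which became 0.169 without the first rod library and 0.132 without the second, by edgeR, and 0.141 with DESeq2. None of the searched motifs was in it. The most accessible element of the locus, element 4 at chr7:67222432-67222631, lies at the starts of Lysmd4 and 1700112J16Rik and was level, with 115 and 123 CPM for rods and 87.1 to 134 CPM over the cone libraries (log2 fold change 0.15, SE 0.19).

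At Mef2d, whose RNA was level, the start was open in every library and the largest difference lay upstream. Element 19 covers the curated start at 88142372 and had 89.1 and 88.3 CPM for rods, 73.7 and 67.4 CPM in the Nrl-/- libraries and 42.8 and 74.6 CPM in double-sorted green cones. Its log2 fold change was 0.46 (SE 0.22, 95% interval -0.03 to 0.94). Element 18, just upstream, stood at 76.2 and 73.4 CPM for rods against 24.1 to 49.4 CPM in the 6 cone libraries. Rods lay above all of them, with a log2 fold change of 1.03 (SE 0.25) that did not exceed the limit (edgeR adjusted p = 0.52). In the same range was element 21, at chr3:88147949-88148148 in the first part of the gene, the most accessible of the locus, at 147 and 137 CPM for rods against 28.0 to 93.4 CPM in cones (log2 fold change 1.06, SE 0.32). It holds CTAATCC and AGGTCA.

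Element 22, at chr3:88152218-88152417 in a Mef2d intron, was called more open in rods. It had 46.2 and 42.7 CPM for rods, 15.7 and 21.1 CPM in the Nrl-/- libraries, 9.33 and 12.6 CPM in double-sorted and 22.0 and 25.1 CPM in single-sorted green cones. The single-sorted libraries lay nearer the rods than the double-sorted ones did. The log2 fold change was 1.53 (SE 0.31, edgeR adjusted p = 0.0817), and it fell short when single-sorted replaced double-sorted green cones (1.08, adjusted p = 0.438). It also fell short without the first Nrl-/- library (adjusted p = 0.107), either double-sorted library (0.102 and 0.117) or either rod library (0.275 and 0.202), in edgeR, and with DESeq2 (0.597).

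Element 12, in an intron of the neighbouring gene Iqgap3, was the clearest cone element of the 71. It had 1.25 and 3.01 CPM for rods, 47.2 and 40.0 CPM in the Nrl-/- libraries, 27.2 and 40.4 CPM in double-sorted and 27.6 and 33.7 CPM in single-sorted green cones. All 6 cone libraries lay far above both rod libraries. Its log2 fold change of rods over cones was -4.15 (SE 0.44, 95% interval -5.10 to -3.19, edgeR adjusted p = 3.5e-04). Its peak was in the 3 cone lists, at a fold enrichment of 15.2 to 20.7, and not in the rod list. The RNA of Iqgap3 was low in both, at 0.607 CPM for rods against 0.885 CPM in the Nrl-/- libraries, and did not pass the test. Around Mef2a 3 of 9 other genes could be tested, around Mef2c 1 of 11 and around Mef2d 9 of 26, and the edgeR adjusted p of each was 1. Their log2 fold changes lay between -0.57 and 0.90, the latter at C130071C03Rik next to Mef2c, with 5.10 CPM for rods against 2.68 CPM in the Nrl-/- libraries.

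**Figure D5:**
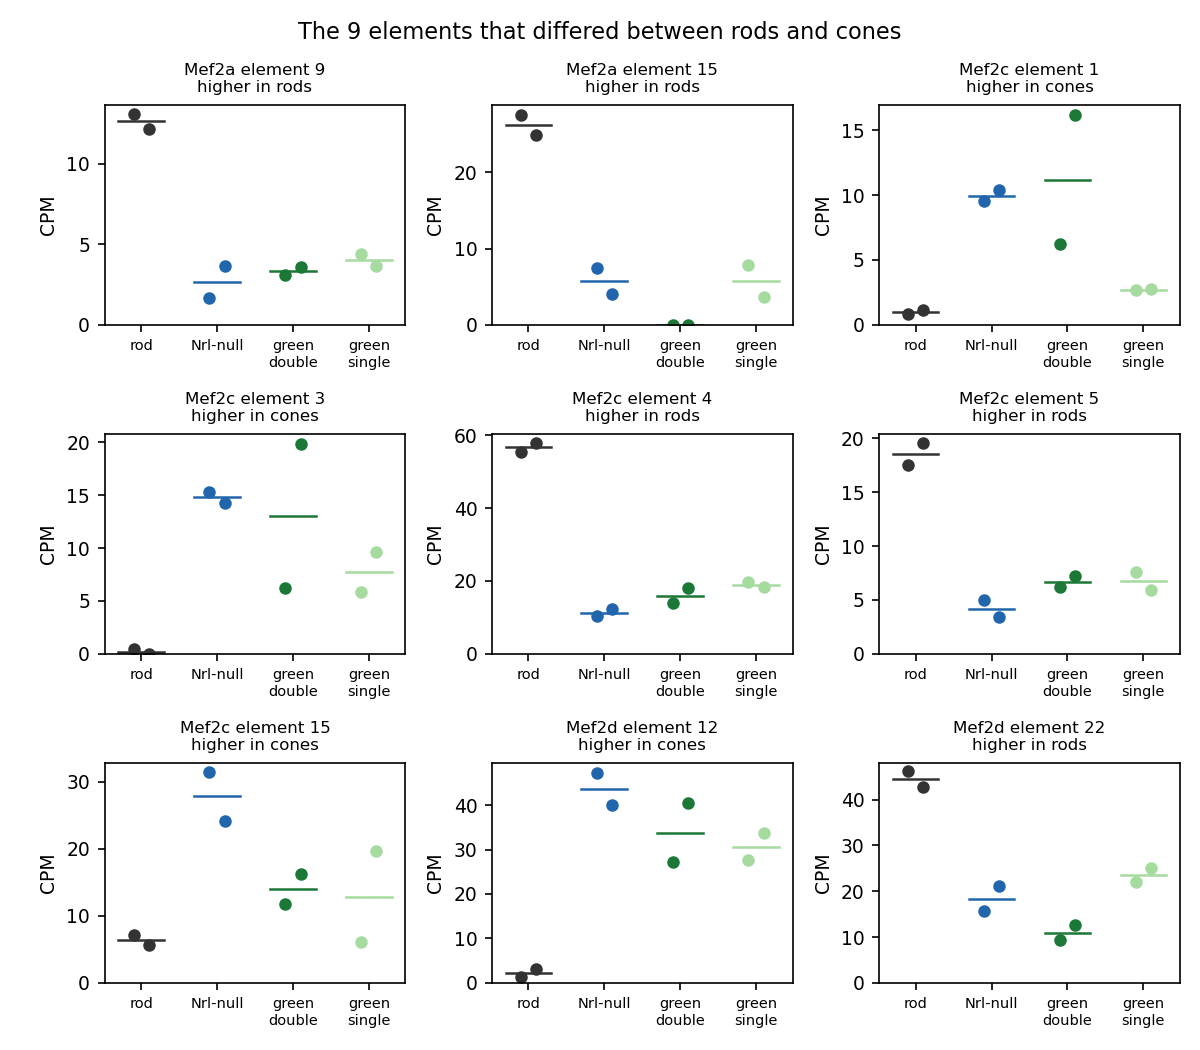
Accessibility in CPM of the 9 elements called in rods against cones, 1 panel each. Points are the 2 libraries of a group and lines their mean, single-sorted green cones were not part of the test and at Mef2c element 15 they overlap the rods.

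Both kinds of cone were also set apart against the rods, in comparisons that share the same 2 rod libraries. Against Nrl-/- photoreceptors, where 6.38% of 49364 elements were more open in rods and 21.0% in the mutant, 4 and 6 of 68 tested MEF2 elements were called. Over all calls rods were the higher side in 23.3%, or 40.3% with processed reads. Those more open in rods were Mef2a elements 9 and 15 and Mef2c elements 4 and 5. More open in Nrl-/- photoreceptors were Mef2c elements 1, 3 and 15, Mef2d element 12 and, beyond the elements above, Mef2a element 1 and Mef2d element 16. At Mef2c element 4 the log2 fold change was 2.28 (SE 0.20, edgeR adjusted p = 5.1e-07) and at Mef2d element 12 it was -4.31 (SE 0.31, adjusted p = 1.6e-11). Mef2a element 1 (-1.74, SE 0.46) and Mef2d element 16 (-1.76, SE 0.42) each lost the call in edgeR without the first rod library or the second Nrl-/- library, with largest adjusted p of 0.629 and 0.389. Both also lost it with DESeq2 and with processed reads, and the former with the replicate number as a block. Mef2a element 9 lost it with DESeq2 and Mef2c element 15 with processed reads.

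Against double-sorted green cones, where 6.43% of 47360 elements were more open in rods and 18.7% in the cones, 5 and 3 of 66 tested MEF2 elements were called. Over all calls rods were the higher side in 25.6%, or 43.5% with processed reads, 11.2% with DESeq2, and with single-sorted cones 1481 elements were higher in rods against 10819 in cones. Those more open in rods were Mef2a element 15, Mef2c elements 4 and 19 and Mef2d elements 22 and 35. Mef2c elements 1 and 3 and Mef2d element 12 were more open in green cones. At Mef2c element 4 the log2 fold change was 1.81 (SE 0.31, edgeR adjusted p = 0.0247), at Mef2c element 1 it was -3.46 (SE 0.76, adjusted p = 0.0192) and at Mef2d element 12 it was -3.96 (SE 0.51, adjusted p = 0.00271). Of the elements called more open in rods, only Mef2a element 15 kept its call without the first or the second rod library. More MEF2 elements were called without the fourth green cone library, and the share over all elements in that fit is not given here. Mef2c element 4 lost its call without the first or the second rod library, with a largest adjusted p of 0.21. Mef2c element 1 lost it without the first rod or the fourth green cone library (up to 0.143), Mef2d element 22 without either rod library (up to 0.173), and Mef2d element 35 (1.82, SE 0.41) without either rod library or the third green cone library (up to 0.33), all in edgeR. With single-sorted cones, Mef2c elements 1 and 19 and Mef2d elements 22 and 35 were not called. With DESeq2 these 4 and Mef2c element 4 were not called, and with processed reads Mef2c element 19 was not.

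Set directly against each other, double-sorted green cones and Nrl-/- photoreceptors showed no called difference at any of the 60 tested MEF2 elements. Over all 42732 elements edgeR called 0.0374% more open in green cones and 0.00234% in the mutant, and green cones were the higher side in 94.1% of calls, or 64.0% with single-sorted cones. At the MEF2 elements 0 had an unadjusted p under 0.05 in that test, 0 were called by DESeq2, and 6 had an unadjusted p under 0.05 against no change at all. The share of all 42732 elements below that level is not given here, so the 6 are no result about the MEF2 loci. At Mef2c element 4 the log2 fold change of green cones over Nrl-/- photoreceptors was 0.49 (95% interval -0.48 to 1.46), at element 1 it was 0.15 (-1.09 to 1.39) and at Mef2d element 12 -0.36 (-1.08 to 0.37). These intervals reach past 2-fold, so differences of that size are not excluded. The test is against a 2-fold change, so a difference of just that size would not be called.

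Added up over all elements of a locus, rods and cones differed by log2 ratios under 1. The sum over the 20 elements of Mef2c was 411 and 406 CPM for rods, 332 and 299.9 CPM in the Nrl-/- libraries, 234 and 348 CPM in double-sorted and 347 and 311 CPM in single-sorted green cones. Rods were above every cone library, by a log2 ratio of means of 0.43 against Nrl-/- and double-sorted green cone libraries. For the 35 elements of Mef2d it was 962 and 951 CPM for rods against 492 to 775 CPM over the 6 cone libraries, a log2 ratio of 0.47. For the 16 elements of Mef2a it was 306 and 328 CPM for rods against 234 to 393 CPM over the cone libraries, a log2 ratio of 0.11, and the groups overlapped. The RNA values, 22.1-fold apart at Mef2c and level at Mef2d, compare rods with Nrl-/- photoreceptors only. The log2 ratios of 0.43 and 0.47 also take in double-sorted green cones. Against the Nrl-/- libraries alone, the mean sum for rods was 408 against 316 CPM at Mef2c and 956 against 764 CPM at Mef2d. Within the gene span (8 and 6 elements) it was 91.4 against 62.9 CPM and 416 against 265 CPM. The Mef2c sums join elements called in opposite directions, such as 4 (rods) and 1 and 3 (cones). A link between these sums and RNA was not tested. Scaling by processed reads moved the log2 ratios of the sums over all elements to 0.93 for Mef2c, 0.97 for Mef2d and 0.46 for Mef2a.

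The letters of the elements were searched on both strands for 6 motifs, with no mismatch allowed, and the share of all 53204 elements of the same length is given beside each. The MEF2 consensus was in 2 of the 71 elements and 2.65% of all, CTAATCC (CRX and OTX2) in 7 and 7.61%, and TGCTGAC (NRL and other MAF factors) in 4 and 3.98%. AGGTCA (nuclear receptors) was in 14 and 14.9%, TAATTA (homeodomain factors) in 5 and 4.71%, and CATATG (E-box) in 2 and 2.50%. AGGTCA was in 6 of the 20 Mef2c elements, 3 of the 16 Mef2a elements and 5 of the 35 Mef2d elements. Over the genome the MEF2 consensus was in 4.92% of the elements called more open in rods, 3.82% of those more open in cones and 2.23% of those not called. For AGGTCA these shares were 30.3%, 17.3% and 13.4%. A match describes the letters of an element and not the binding of a factor.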

How the data were processed

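The members and gene lists were chosen with earlier results of these data known. Per the study's methods, the authors aligned ATAC-seq reads to mm10 with Bowtie2 2.2.3, kept inserts up to 100 bp, called reproducible peaks per cell type with MACS2 2.1.0 and an irreproducible discovery rate (IDR) threshold, and deposited raw counts per 200 bp element. The deposited peak lists give MACS2's score and the fold enrichment ratio of each peak, with no replicates, and every peak's name in these files holds the word pooled. For RNA-seq the authors used STAR 2.4.2a and HTSeq 0.6.1p1 on RefSeq genes and deposited raw counts. The strand setting is not given in the sources used here, so overlapping and antisense genes cannot be told apart. Reads with no gene were 41.3% to 49.2% and were left out.

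Libraries held 1062403 to 5770075 counts in elements (ATAC-seq) and 18376770 to 26312895 in genes (RNA-seq). The double-sorted green cone libraries were the shallowest. Of element counts from 1 to 50, 78.1% were even, so counts are not independent molecules. Counting intervals and floors take counts as independent, so they do not cover all of the counting error and none of the spread between libraries. edgeR 4.0.16 (filterByExpr, TMM, glmQLFit, glmTreat against a log2 fold change of 1, Benjamini-Hochberg) was run on all features in R 4.3.3, at an adjusted p of 0.05 for RNA and 0.1 for ATAC-seq, and tested on simulated data. DESeq2 1.42.0, other scalings, no filter, single-sorted cones, a distance of 100 kb, a replicate block and leaving out each library were alternatives. The study calls its replicates biological, but nothing in the labels says that they came from separate animals, so p-values measure the spread between these samples. Of each list up to 4 called genes of largest change, those a count needed and some that were not called were named. For likeness the 3 genes of highest r were named. Named elements were, per locus, those at MEF2 start sites, up to 3 of lowest p per direction among those called in rods against cones and the most accessible one. Mef2a element 1, Mef2c element 7 and Mef2d elements 16, 29 and 35 were named for a call, a motif or a peak list after their values were seen. Pearson correlations and shares were computed from CPM or RPKM in Python 3.11.15.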

Additional observations from a re-analysis of the deposited data

How the results depend on the processing

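Against no change instead of a 2-fold change, 2 MEF2 genes were higher in rods and Mef2a (0.63) passed. Mef2d RNA reversed to -0.02 without rod replicate 3, in a range of -0.02 to 0.09. Elements more open in rods than in cones numbered 1 with DESeq2 and 14 against no change, and their number fell whichever library was left out. Those more open in cones numbered 8 against no change. DESeq2 called 693 of all 51563 tested elements more open in rods. For rods over Nrl-/- photoreceptors the test against no change gave 22 and 13, and processed reads gave 3 on the Nrl-/- side. Of all 47549 elements tested with processed reads, 5972 were called on that side. For rods over double-sorted green cones there were 1 with DESeq2, 3 with single-sorted cones, 3 within 100 kb and 14 against no change. On the green cone side there were 6 against no change. DESeq2 called 566 of all 47360 elements more open in rods, and the fit with single-sorted cones 1481 of 50593. The number also varied with the library left out. Shares of all elements called are not given here against no change, with a replicate block or with a library left out. Counts under these settings are thus no result about the MEF2 loci. Scaling by processed reads shifted the median of all elements by 0.47 (rods over cones), 0.58 (over Nrl-/-), 0.51 (over green cones) and 0.12 (green cones over Nrl-/-). It moved the summed log2 ratios to 0.46 (Mef2a), 0.93 (Mef2c) and 0.97 (Mef2d), and reversed Mef2a element 12 to 0.10. Among peaks above the median score, the lists held 34 (rods), 34 (Nrl-/-), 31 (double-sorted) and 36 (single-sorted) elements. The cause was not tested. With the replicate number as a block, Mef2c RNA stayed at 4.47, and 4 and 5 elements were called between rods and Nrl-/- photoreceptors. In their deviations from the group mean, same-numbered libraries correlated at 0.13, 0.05 and 0.02 (RNA) and 0.03 (ATAC-seq). With 2 ATAC-seq libraries a group both pairs give the same value by construction. The numbers were not taken as pairs, and in RNA rod library 2 correlated better with Nrl-/- library 3 (0.08). The test against a 2-fold change does not call differences close to that size. With 2 ATAC-seq libraries a group, such differences were also not excluded at weakly open elements.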
